A study of Mus musculus with 6 samples.

Results

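The sperm tail carries its beating core, the axoneme, inside accessory structures that are assembled while spermatids elongate. Outer dense fibres run along the axoneme as stiff cables, and in the principal piece a fibrous sheath of longitudinal columns and ribs surrounds them and serves as a scaffold for protein kinase A and glycolytic enzymes. The genes of these structures are transcribed mainly in haploid spermatids, the cells that follow meiosis. The 10 genes Odf1, Odf2, Odf4, Akap3, Akap4, Fscb, Cabyr, Ropn1, Ropn1l and Spa17 were chosen by symbol as a set of such genes, out of 53700 gene identifiers in the count tables. Each symbol matched 1 identifier, and all 10 genes passed the filter on low counts together with 21902 genes in all.

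Total RNA of whole testes at postnatal day 45 was sequenced as single-end reads of 75 bp from 3 mice of genotype MSL3 WT (WT) and 3 of genotype MSL3 cKO (cKO), the latter described as floxed conditional knockouts of Msl3. Msl3 encodes a chromatin-binding subunit of the male-specific lethal complex, and the series asks whether its loss alters spermatogenesis. Both groups share the strain label Msl3em1Forni/C57BL/6J. The recombinase and the cells in which it acts are not given in the sources used here. Each library held 56991431 to 73766444 reads assigned to genes, of which the 10 tail genes took 671292 to 911562.

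The libraries are named by their labels, because the targeted gene did not separate them. Msl3 (ENSMUSG00000031358) had 942, 1226 and 990 reads in WT 1, 2 and 3 and 1170, 829 and 923 in cKO 1, 2 and 3. Scaled to library size as counts per 1000000 reads (CPM), this was 16.9 ± 1.68 (SD, n = 3) in WT and 15.6 ± 0.649 (SD, n = 3) in cKO, a log2 fold change of -0.12 (SE 0.088; edgeR adjusted p = 0.551). The gene count covers all exons, so it does not test a deletion of some of them. Markers of germ cells, Sertoli, Leydig, myoid and endothelial cells and macrophages were all detected, whereas the summed level of 4 markers of epididymal epithelium (Lcn5, Lcn8, Crisp1 and Cst11) was 0.107 to 0.274 CPM per library. In whole testis, fewer cells of a type and less RNA per cell cannot be told apart.

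None of the 10 tail genes passed the threshold between cKO and WT. With edgeR's quasi-likelihood test and adjustment over all genes, 0 of 10 had an adjusted p of at most 0.05, against 0.0183% of all genes tested (4 genes). At an unadjusted p under 0.05 there was 1 of 10, Ropn1, against 13.9% of all genes. The WT and cKO libraries did not overlap for 2 of 10, Odf2 and Ropn1, against 18.9% of all genes. DESeq2, an alternative, called 1 of the 10 genes, Ropn1 again, against 1.78% of the genes to which it gave an adjusted p, or 0.948% counting those lower in cKO. The median log2 fold change was 0.0020 for the 10 genes and 0.0031 for all genes tested, and 6 of the 10 lay within 0.03 of 0. Leaving Ropn1 aside, the 95% limits of the other 9 genes ran from 81.8% of the WT level at the lowest, for Akap4, to 119% at the highest, for Odf2. The 10 genes together took 1.22% ± 0.0457 (SD, n = 3) of assigned reads in WT and 1.20% ± 0.0301 (SD, n = 3) in cKO, with overlapping libraries.

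**Figure D1:**
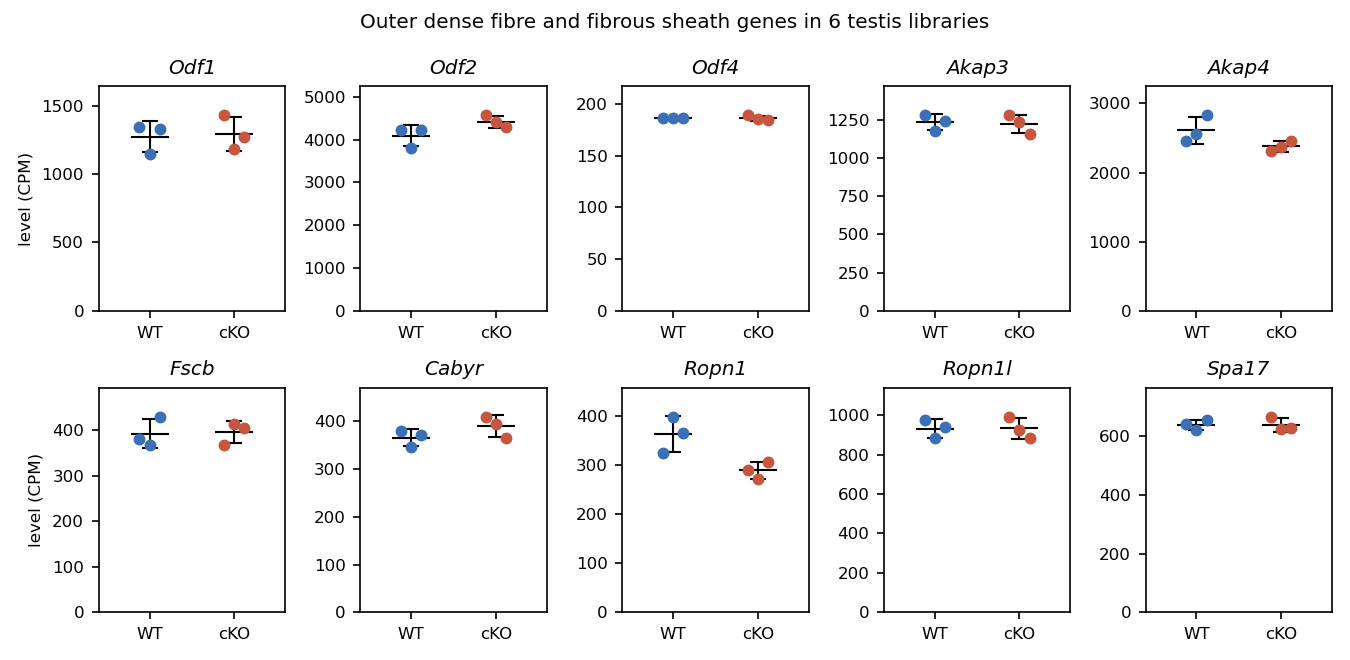
Level in CPM (vertical axis, from 0) of each gene in the 3 WT and 3 cKO libraries; points are libraries, the horizontal mark is the group mean and the bar its SD. Ropn1 is lower in every cKO library than in every WT library, Odf2 is slightly higher in every cKO library, and the groups overlap for the other 8 genes.

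Levels of different genes were compared per kilobase of annotated exon, using the exons of all transcripts of a gene. On this scale Odf1 was the highest in WT, with 1152 CPM per kb, followed by Ropn1l with 974 and Akap4 with 863 CPM per kb. Spa17 stood at 601, Odf2 at 412, Akap3 at 391 and Ropn1 at 270 CPM per kb. Odf4, Cabyr and Fscb were the lowest, with 160, 146 and 117 CPM per kb. Among neighbours in this order the WT ranges of Ropn1l and Akap4 overlapped, as did those of Odf2 and Akap3, and the other 7 neighbouring pairs did not. The order depends on the length chosen, most of all for Odf2, since its 25 annotated transcripts span 9919 bp of exon but the longest has 4291 bp. With the longest transcript as length its WT level would be 953 CPM per kb. On that length Spa17, at 873, would also pass Akap4, at 865, and Cabyr, at 172, would pass Odf4, at 165 CPM per kb.

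**Figure D2:**
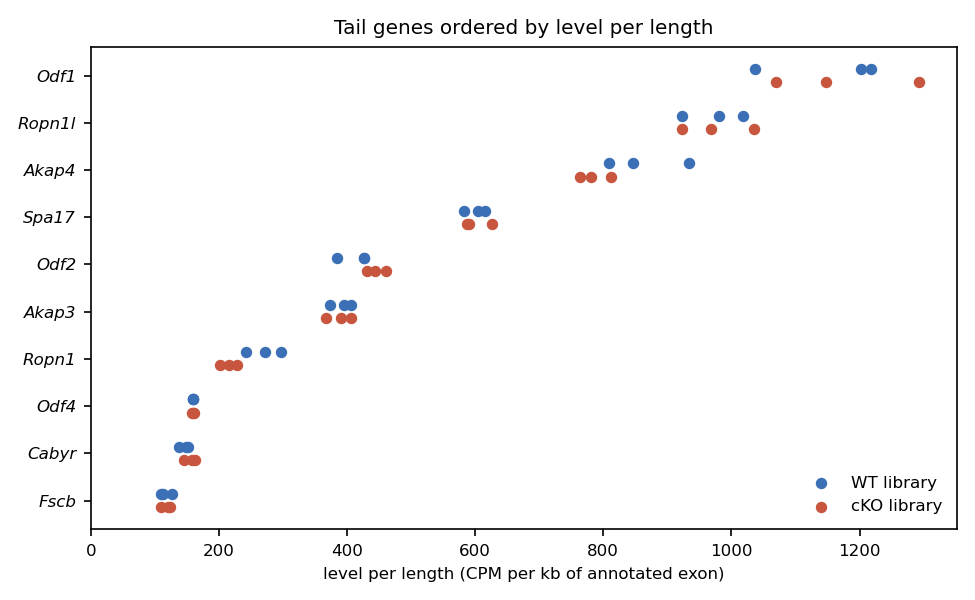
Level per length in CPM per kb of annotated exon (horizontal axis) for each gene in the 6 libraries, ordered by the WT mean. Odf1, Ropn1l and Akap4 lie at or above 763 CPM per kb in all libraries, and Odf4, Cabyr and Fscb at or below 163.

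The outer dense fibre genes were examined first. Odf1 (ENSMUSG00000061923, chr15:38219203-38226735, plus strand, GRCm38) encodes the main cysteine-rich protein of the fibres. It stood at 1346, 1145 and 1328 CPM in WT 1, 2 and 3 and at 1429, 1182 and 1268 CPM in cKO 1, 2 and 3. The lowest library of each group was replicate 2, and the groups overlapped. The cKO to WT log2 fold change was 0.02 (SE 0.086; edgeR adjusted p = 0.934), with 95% limits of 89.1% and 116% of the WT level. With a correction for GC content and transcript length it was 0.11.

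Odf2 (ENSMUSG00000026790, chr2:29889221-29931746, plus strand) encodes a coiled-coil protein of the fibres and, through other transcripts of the same gene, the centrosomal protein cenexin. It stood at 4232, 3813 and 4224 CPM in WT and at 4564, 4404 and 4281 CPM in cKO. Every cKO library was above every WT library, the closest pair being cKO 3 and WT 1. Higher levels without overlap were seen in 10% of all genes tested. On the log2 scale the difference was 0.11 (SE 0.067; edgeR adjusted p = 0.479), and the gene count sums all transcripts. It was 0.062 without WT replicate 2 and 0.054 with the GC content and length correction. The ratio of Odf2 to Odf1 reads, which does not depend on scaling, was 3.22 ± 0.0985 (SD, n = 3) in WT and 3.43 ± 0.270 (SD, n = 3) in cKO, with overlap.

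Odf4 (ENSMUSG00000032921, chr11:68921835-68927081, minus strand) encodes a membrane-associated protein of the tail. It was the steadiest of the 10 genes, with 186, 186 and 187 CPM in WT and 189, 186 and 184 CPM in cKO. Its WT libraries varied by 0.182% of their mean, less than the counting error of 0.931% that the number of reads alone gives. The log2 fold change was -1.1e-04 (SE 0.060; edgeR adjusted p = 1.000), with 95% limits of 91.3% and 110% of the WT level, and with a correction for GC content and transcript length it was 0.088.

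The A-kinase anchoring proteins AKAP3 and AKAP4 form the bulk of the fibrous sheath and bind regulatory subunits of protein kinase A. AKAP4, encoded on the X chromosome, is made as a precursor that is cleaved during sheath assembly, and AKAP3 is laid down before it. Akap3 (ENSMUSG00000030344, chr6:126853098-126874308, plus strand) stood at 1279, 1180 and 1245 CPM in WT and at 1279, 1232 and 1160 CPM in cKO. These ranges overlapped almost completely. The log2 fold change was -0.01 (SE 0.067; edgeR adjusted p = 0.952), with 95% limits of 89.6% and 110% of the WT level.

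Akap4 (ENSMUSG00000050089, chrX:7067519-7078609, plus strand) stood at 2449, 2561 and 2826 CPM in WT and at 2311, 2363 and 2457 CPM in cKO. Only the highest cKO library, cKO 3, reached above the lowest WT library, WT 1. Akap4 thus had a log2 fold change of -0.14 (SE 0.070; edgeR adjusted p = 0.405), with 95% limits of 81.8% and 101% of the WT level. Without WT replicate 3 it was -0.085. The ratio of Akap4 to Akap3 reads was 1.92, 2.17 and 2.27 in WT and 1.81, 1.92 and 2.12 in cKO. The groups therefore overlapped in this ratio too.

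The sequences upstream of the RefSeq start sites of this pair are shown because they share the longest run of letters found between any of these genes. Promoter entries (GRCm38.p6) were present for 8 of the 10 genes, not for Odf1 and Cabyr, and the 250 bases before each start were compared in the 28 gene pairs on both strands. Akap3 and Akap4 shared 20 bases in a row, printed in capitals, while the next longest run in any pair had 11. Those 20 letters occurred upstream of no other gene among 32851 promoter entries. They end 14 bases before the start of Akap3 (chr6:126852998-126853097, plus strand) and 27 bases before that of Akap4 (chrX:7067415-7067514, plus strand). The run was noticed in the sequences and not searched for as a known site.
Akap3: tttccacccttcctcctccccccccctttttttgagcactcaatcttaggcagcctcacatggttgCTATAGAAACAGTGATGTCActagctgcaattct
Akap4: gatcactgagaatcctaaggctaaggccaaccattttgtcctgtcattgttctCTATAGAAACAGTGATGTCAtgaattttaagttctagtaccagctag

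Fscb and Cabyr encode partners in the sheath: CABYR is a calcium-binding protein phosphorylated during capacitation, and FSCB binds it. Fscb (ENSMUSG00000043060, chr12:64471330-64474690, minus strand), a gene of 1 exon, stood at 381, 367 and 429 CPM in WT and at 368, 414 and 404 CPM in cKO. Cabyr (ENSMUSG00000024430, chr18:12740322-12755260, plus strand) stood at 380, 346 and 372 CPM in WT and at 409, 394 and 364 CPM in cKO. Both genes overlapped between the groups. Fscb had a log2 fold change of 0.01 (SE 0.077; edgeR adjusted p = 0.964). For Cabyr it was 0.09 (SE 0.070; edgeR adjusted p = 0.589), with 95% limits of 95.7% and 118% of the WT level. Leaving out 1 library moved the Cabyr value to 0.051 (without WT replicate 2), 0.052 (without cKO replicate 1) and 0.14 (without cKO replicate 3).

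Ropn1, Ropn1l and Spa17 encode small sheath or axonemal proteins that carry a docking domain like that of the regulatory subunit of protein kinase A, through which they bind A-kinase anchoring proteins. CABYR carries the same kind of domain. Ropporin, the product of Ropn1, and its paralogue from Ropn1l can partly replace each other in the sheath. Of the 10 genes Ropn1 had the largest log2 fold change, which did not pass the edgeR threshold.

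Ropn1 (ENSMUSG00000022832, chr16:34649921-34678618, plus strand) stood at 325, 398 and 364 CPM in WT 1, 2 and 3 and at 290, 272 and 306 CPM in cKO 1, 2 and 3. The highest cKO library lay below the lowest WT library, a pattern of lower levels without overlap that 8.85% of all genes showed. The mean was 362 ± 36.7 CPM (SD, n = 3) in WT and 289 ± 17.1 CPM (SD, n = 3) in cKO. This gave a log2 fold change of -0.33 (SE 0.083), so that cKO held 79.8% of the WT level (95% limits 70.4% and 90.4%). The edgeR p was 0.0020 unadjusted and 0.276 after adjustment over all genes, so the difference did not pass.

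Whether Ropn1 was called depended on the test. DESeq2 gave it an adjusted p of 0.027 with the same fold change. When genes with few reads were kept, edgeR gave an adjusted p of 0.0027 and called 2.07% of genes. That fit pooled the spread almost wholly over genes, with a median of 146420 degrees of freedom per gene against 11.9 otherwise. With a correction for GC content and transcript length the log2 fold change was -0.22 (edgeR adjusted p = 0.423). The fits that each left out 1 library gave log2 fold changes from -0.40 (without WT replicate 1) to -0.25 (without WT replicate 2), and none called Ropn1, with edgeR adjusted p from 0.056 to 0.730.

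The Ropn1 value was set beside other genes as a description, since Ropn1 is singled out here as the most different of the 10. Of the 1228 genes with a mean between that of Odf4 (186 CPM) and that of Odf2 (4253 CPM), 11 (0.896%) had a lower log2 fold change. These abundant genes were shifted upward as a set, with a median log2 fold change of 0.04, 36.6% of them lower in cKO and 5th and 95th percentiles of -0.22 and 0.25. Of all 21902 genes tested, 7.03% had a lower log2 fold change than Ropn1. The median SE was 0.11 over all genes and 0.072 over the 1228.

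Ropn1l (ENSMUSG00000022236, chr15:31441211-31453737, minus strand) did not share this pattern. It stood at 975, 883 and 938 CPM in WT and at 991, 926 and 884 CPM in cKO, which overlapped fully. The log2 fold change was 0.0027 (SE 0.070; edgeR adjusted p = 0.991), with 95% limits of 90.2% and 111% of the WT level, and 0.081 with the GC content and length correction. There were 3.00, 2.22 and 2.57 Ropn1l reads per Ropn1 read in WT and 3.42, 3.41 and 2.89 in cKO. WT 1 exceeded cKO 3, so the ratio overlapped between groups. No stretch of 75 bases was shared between either gene's transcripts and those of any other annotated gene, so uniquely mapped reads could be told apart between the paralogues.

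**Figure D3:**
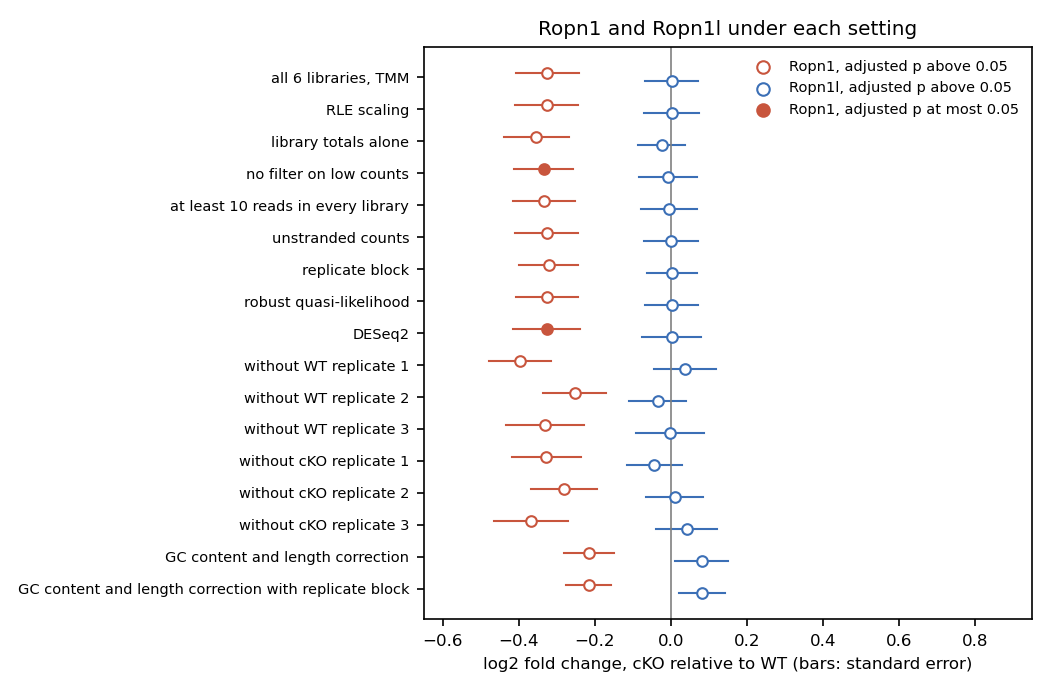
Log2 fold change of cKO relative to WT (horizontal axis; bars are standard errors) for Ropn1 in red and Ropn1l in blue under each analysis setting. Ropn1 is negative in all settings, and filled points mark the 2 settings in which its adjusted p was at most 0.05; Ropn1l lies between -0.043 and 0.081.

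The sequences before the RefSeq starts of these paralogues are shown for their contrast in composition. The 250 bases before the RefSeq start were 42% G and C with 2 CG dinucleotides in Ropn1, and 57.6% with 18 in Ropn1l, against medians of 52.4% and 6 over all promoter entries. For Ropn1 these bases (chr16:34650961-34651210) lie inside the annotated gene, which begins at chr16:34649921. The contrast therefore does not compare like positions of the annotated genes. Among the other genes, Odf2 and Spa17 had 13 to 35 CG dinucleotides, and Odf4, Akap3, Akap4 and Fscb had 0 to 2. The stretches of Odf2, from chr2:29889470 on, also lie inside its annotated gene, which begins at chr2:29889221. So does the Akap4 stretch chrX:7067960-7068209. The 100 bases before the start of Ropn1 are chr16:34651111-34651210 (plus strand) and those of Ropn1l chr15:31453690-31453789 (minus strand). Capitals mark GTTGCC, a short motif within the X-box bound by RFX factors, 14 bases before the RefSeq start of Ropn1l. The annotated gene given above begins further upstream, at chr15:31453737, so the motif lies inside it.
Ropn1: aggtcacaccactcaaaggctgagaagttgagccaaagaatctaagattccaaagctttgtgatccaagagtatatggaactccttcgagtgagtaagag
Ropn1l: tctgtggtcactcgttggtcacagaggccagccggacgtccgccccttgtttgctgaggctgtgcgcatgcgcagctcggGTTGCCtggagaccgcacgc

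A search of these 250 bases on both strands for 4 short motifs found few matches. GTTGCC occurred before the RefSeq start of 1 of the 8 genes, Ropn1l, and in 10.4% of all promoter entries. TGACGTCA, the cyclic AMP response element, occurred in 0 of 8 genes and 1.55% of entries. TGACG, which is contained in it, occurred in 1 of 8, Odf2, and 17.8% of entries. ACAAT, a core of SOX factor sites, occurred in 1 of 8, Akap4, and 27.7% of entries. These are letter matches and not evidence of binding.

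Spa17 (ENSMUSG00000001948, chr9:37603290-37613722, minus strand) encodes sperm autoantigenic protein 17. It stood at 641, 619 and 653 CPM in WT and at 665, 623 and 626 CPM in cKO, with overlap. The log2 fold change was 0.0013 (SE 0.063; edgeR adjusted p = 0.995), with 95% limits of 91.0% and 110% of the WT level. With the GC content and length correction it was 0.12. Its exons overlap those of Siae on the opposite strand by 391 bp, or 36.9% of its exonic length. Counting without strand kept 93.9% of the Spa17 reads and gave a log2 fold change of 0.0027.

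The genes did not deviate together in all libraries. In WT 2, 7 of the 10 genes lay below their own mean over the 6 libraries, Odf1 the furthest with -0.16 on the log2 scale, while Ropn1 lay 0.30 above its mean. In cKO 1, 7 genes lay above their mean, Odf1 again the furthest with 0.16, and Ropn1 lay at -0.16. Akap4 was also above its mean in WT 2 and below it in cKO 1, at 0.04 and -0.11. In cKO 3, 8 genes lay below their means, by at most 0.082. These deviations share the library and its scaling.

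**Figure D4:**
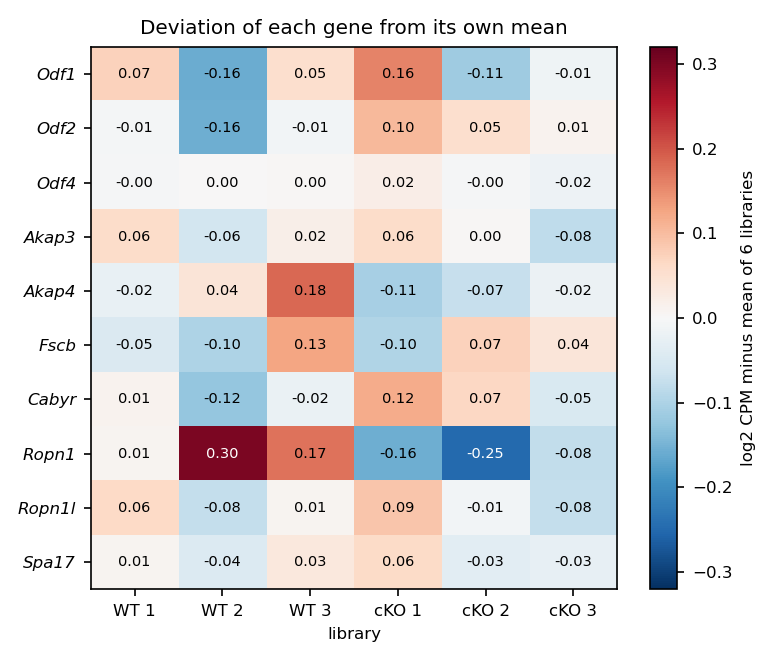
Deviation of log2 CPM from the gene's own mean over 6 libraries (colour and printed value) for each gene (rows) and library (columns). Ropn1 spans the widest range, from 0.30 in WT 2 to -0.25 in cKO 2, and Odf4 the narrowest.

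Markers of the spermatids that express these genes were set beside them. All 6 round spermatid markers (Acrv1, Spaca1, Izumo1, Tssk6, Pgk2 and Spata25) had a lower level in cKO, with a median log2 fold change of -0.22 and 0 past the edgeR threshold (lowest adjusted p 0.276). At an unadjusted edgeR p under 0.05 there were 5 of the 6, against 6.54% of all genes that were lower at that p. Their summed level was 2240 to 2353 CPM in WT and 1820 to 2163 CPM in cKO, without overlap. The highest of them, Pgk2 (1192 CPM in WT) and Tssk6 (552 CPM in WT), each overlapped between the groups. Taken singly, 2 of the 6, Izumo1 and Spata25, were lower without overlap, against 8.85% of all genes. Of 6 elongating spermatid markers (Prm1, Prm2, Prm3, Tnp1, Tnp2 and Spem1), 4 were lower and 2 higher, with a median of -0.12 and 0 past the threshold. Their sums overlapped, at 14122 to 15425 CPM in WT and 11654 to 14636 CPM in cKO. At an unadjusted edgeR p under 0.05 there was 1 of these 6, Tnp1, lower in cKO, against the same 6.54% of all genes. Tnp1 had a log2 fold change of -0.40 (edgeR adjusted p = 0.276), with overlap between the groups. Markers of the other cell types differed in direction, again with 0 past the threshold. Of 8 spermatogonial markers 7 were higher and 1 lower (median 0.09), and of 6 spermatocyte markers 3 were higher and 3 lower (median -0.02). Of 6 Leydig cell markers 4 were lower and 2 higher (median -0.08). Of 5 myoid cell markers 4 were lower and 1 higher (median -0.04). All 5 macrophage markers were lower (median -0.24, Lyz2 -0.47), all 3 endothelial markers were higher (median 0.25), and 6 of 7 Sertoli cell markers were higher (median 0.07). An unadjusted edgeR p under 0.05 was found for 13.9% of all genes. Among these markers it was found for 2 Sertoli (Sox9 and Wt1) and 1 endothelial, all higher, and for 2 macrophage and 1 Leydig, all lower. Of the myoid cell markers 1 was lower and 1 higher at that p, and of spermatogonial and spermatocyte markers 0 reached it. The part of cell composition in the Ropn1 value, or in those of the other 9 genes (log2 fold changes from -0.14 to 0.11), was not tested.

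Genes with the profile nearest to that of Ropn1 over the 6 libraries were sought among the 10041 genes whose mean reached 10 CPM. By root mean square distance of centred log2 CPM they were Tmco2 (0.028), 4930417H01Rik (0.029), AC164010.1 (0.030), Commd1 (0.031) and 1700125H03Rik (0.032), where the median gene lay at 0.228. Tmco2 stood at 200, 255 and 232 CPM in WT and at 186, 178 and 191 CPM in cKO. The mean profile of all 10 tail genes was nearly flat, and nearest to it were Ip6k2 (0.010), Eif4e (0.011), Smndc1 (0.011) and Gtf2h2 (0.012), with a median of 0.099 over all genes. Nearness over 6 libraries also follows from a shared group difference or from little variation at all.

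Other genes of the same structures were taken from 4 lists with 33 genes, of which 32 had enough reads, and 0 of these passed the edgeR threshold, against 0.0183% of all genes. Of 10 other outer dense fibre genes tested, 6 were lower and 4 higher in cKO, with a median log2 fold change of -0.03. Oaz3, which encodes a testis-specific antizyme of spermatids, stood at 1693 ± 192 CPM (SD, n = 3) in WT and 1662 ± 136 CPM (SD, n = 3) in cKO. Spag4, a nuclear envelope and tail protein that binds ODF1, had a log2 fold change of -0.12 and Odf3l1 one of 0.14 (edgeR adjusted p = 0.445 and 0.383). Odf3l2 held too few reads to be tested.

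Of 8 other fibrous sheath genes, 3 were lower and 5 higher, with a median log2 fold change of 0.03. Fsip2, a large sheath protein, varied far more than the rest, with 206, 353 and 263 CPM in WT and 205, 599 and 440 CPM in cKO. Its log2 fold change was 0.60 (SE 0.29; edgeR adjusted p = 0.386), and cKO 1 lay at the level of WT 1. Fsip2 passed the threshold when cKO 1 was left out (log2 fold change 0.92), a fit that called 628 genes, against 4 in the main fit. It also passed when genes with few reads were kept (757 genes called). With the replicate block added to the GC content and length correction it passed too (log2 fold change 0.28, 171 genes called). The germ-cell glycolytic enzymes of the principal piece, Gapdhs and Ldhc, had log2 fold changes of 0.10 and -0.09 (edgeR adjusted p = 0.587 and 0.560). Gstm5, a glutathione transferase, had one of -0.09 (edgeR adjusted p = 0.741).

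The protein kinase A subunits that these anchors hold showed small values throughout: 5 of 6 were higher and 1 lower, with a median log2 fold change of 0.05. The catalytic subunits Prkaca and Prkacb had log2 fold changes of 0.13 and 0.07 (edgeR adjusted p = 0.406 and 0.717). The regulatory subunits Prkar1a and Prkar2a had 0.01 and 0.04 (edgeR adjusted p = 0.954 and 0.870).

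Of 8 genes of the annulus and the mitochondrial sheath, the structures next to the fibrous sheath, 5 were lower and 3 higher, with a median log2 fold change of -0.05. Of the 32 tested genes of the 4 lists, 3 had an unadjusted edgeR p under 0.05, against 13.9% of all genes tested. All 3 were lower in cKO, against 6.54% of all genes that were lower at that p, and belong to the mitochondrial sheath. Spata19, a mitochondrial protein of spermatids, stood at 349, 478 and 429 CPM in WT and at 296, 279 and 353 CPM in cKO. The cKO 3 library lay just above WT 1. Spata19 had a log2 fold change of -0.44 (SE 0.11, edgeR adjusted p = 0.276). It passed with DESeq2 (209 genes called in all) and when genes with few reads were kept (757 genes called). It also passed when WT 1 was left out (log2 fold change -0.55, 116 genes called). With the replicate block added to the GC content and length correction it passed too (171 genes called).

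Gpx4, whose product builds the capsule of sperm mitochondria, stood at 894, 939 and 941 CPM in WT and at 821, 682 and 800 CPM in cKO, without overlap. Its log2 fold change was -0.27 (SE 0.077; edgeR adjusted p = 0.288), and of the settings tried it passed in 1, the fit that kept genes with few reads. Gk2, a testis glycerol kinase, had a log2 fold change of -0.17 (edgeR adjusted p = 0.320). Smcp, another capsule protein gene, had one of 0.10 (edgeR adjusted p = 0.536), so the genes of this list did not share a direction.

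**Figure D5:**
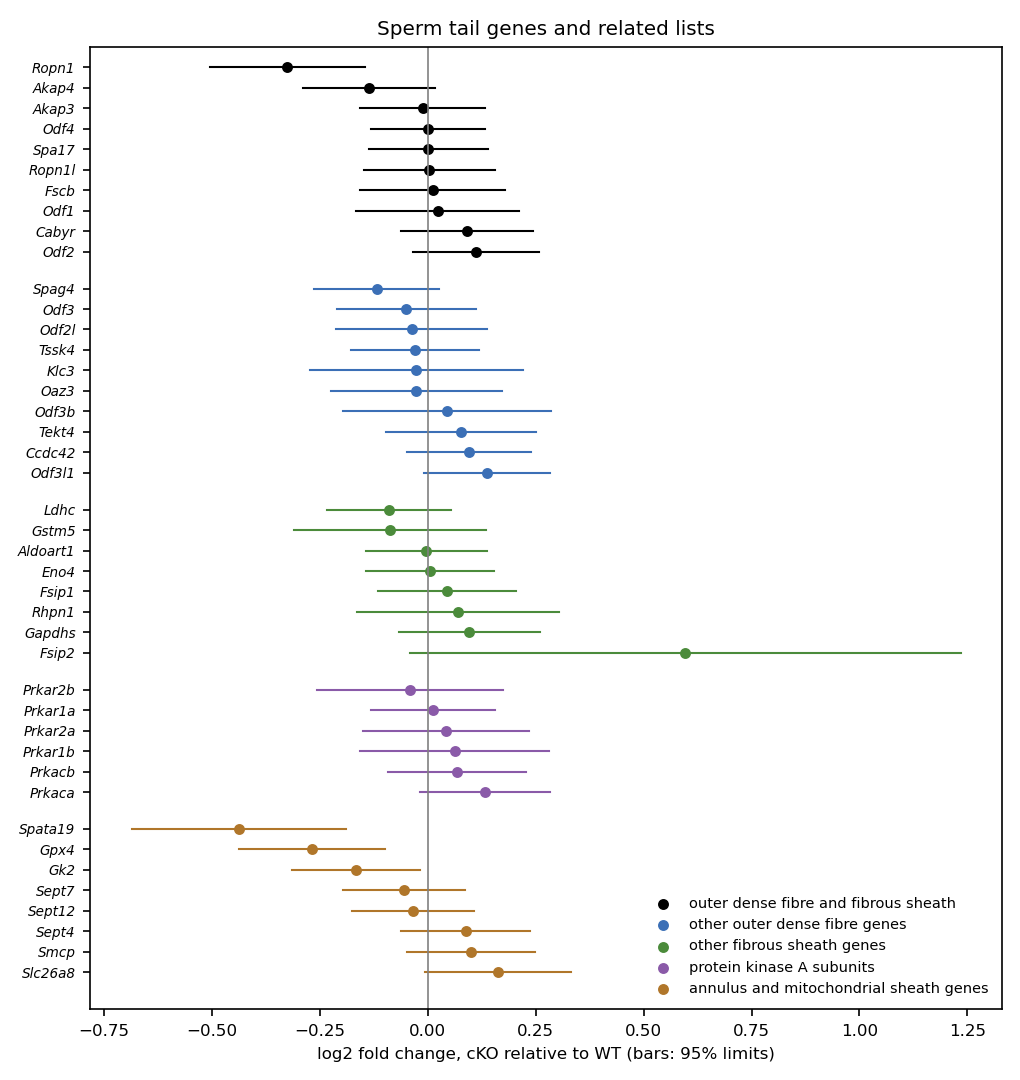
Log2 fold change of cKO relative to WT (horizontal axis; bars are 95% limits of edgeR's quasi-likelihood fit) for the 10 tail genes in black and the 32 tested genes of 4 related lists in colour. The limits of Ropn1, Spata19, Gpx4 and Gk2 lie below 0, and no gene passed an adjusted p of 0.05.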

How the data were processed

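The deposited values are raw counts of reads per gene, 1 table per library, in the layout of STAR's gene count output; the authors' tools STAR, HTSeq and DESeq2 and the build mm10 are named in the submitters' processing notes, without versions or roles. The library kit and annotation release are not given in the sources used here. Opposite-strand counts made up 96.0% to 96.2% of both strand columns and were used. Lines outside single genes (14.8% to 16.7% of reads) were left out. Symbols and lengths came from GENCODE M21 (GRCm38), which matched 52147 of 53700 identifiers.

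Tests used edgeR 4.0.16 in R 4.3.3: TMM scaling, filterByExpr (minimum count 10), a two-sided quasi-likelihood F test between genotypes, Benjamini-Hochberg adjustment over 21902 genes at 0.05. Standard errors come from the F statistic, and CPM uses TMM-scaled library sizes. DESeq2 1.42.0 was run on the same genes. The labels call the samples biological replicates, so each was taken as 1 mouse. The procedure was tested on simulated data.

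The 10 genes, lists and tests were chosen with earlier results of these data known. Named by rule were the 10 genes, Msl3, the 2 highest and the 2 most different genes of each related list with at least 10 CPM, and the 5 nearest profiles, of which 1 is not reported here. Across genes, the deviations of WT and cKO libraries of the same number correlated at 0.35 (number 1), 0.26 (number 2) and -0.05 (number 3). The share of reads in no annotated gene was 4.98%, 6.65% and 6.08% in WT 1, 2 and 3. In cKO 1, 2 and 3 it was 5.05%, 6.94% and 5.85%, closest between libraries of the same number. The labels do not say what the numbers share, and they were not taken to pair mice. A batch shared by number was not tested. The alternatives were 2 scalings, 2 filters, unstranded counts, a replicate block, robust fitting, DESeq2, 6 fits without a library, and a loess correction (span 0.3) for GC content and length, alone and with the block.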

Additional observations from a re-analysis of the deposited data

How the results depend on the processing

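Over the 16 alternatives, Ropn1, Akap4, Odf2 and Cabyr kept their sign, and Ropn1 alone of the 10 tail genes was ever called. The count of called tail genes, 0, became 1 with DESeq2 and 1 without the filter on low counts. The count over all genes, 4, became 757 without the filter, 209 with DESeq2, 2 with unstranded counts, 49 with the replicate block, 171 with the block added to the GC content and length correction, and 1 to 628 without 1 library, the highest without cKO replicate 1. The count in related lists, 0, became 3, 1 and 2 without the filter, with DESeq2 and with the corrected block, and 0 to 1 without 1 library. With the replicate block alone, no tail gene or related gene was called (Ropn1 adjusted p 0.075). The cause of these changes was not tested.

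The median of the 10 genes was 0.068 with the GC content and length correction, with and without the block, and Odf4 then stood at 0.088 in both. Under the correction alone Spa17 stood at 0.12, Cabyr at 0.13, Odf1 at 0.11, Ropn1l at 0.081 and Odf2 at 0.054, so values near 0 depend on this choice. Values close to 0 changed sign. With library totals alone Odf1 stood at -0.0041, Fscb at -0.017, Ropn1l at -0.025 and Spa17 at -0.026. Ropn1l and Spa17 stood at -0.0069 and -0.0084 without the filter, and at -0.0058 and -0.0072 with at least 10 reads in every library. Without 1 library, the ranges were -0.056 to 0.084 for Odf1, -0.011 to 0.0083 for Odf4, -0.046 to 0.025 for Akap3, -0.035 to 0.070 for Fscb, -0.043 to 0.041 for Ropn1l and -0.030 to 0.019 for Spa17. They were 0.062 to 0.14 for Odf2, 0.051 to 0.14 for Cabyr and -0.18 to -0.085 for Akap4. The share of reads taken by the 10 genes was 1.03% in WT and 1.02% in cKO with all reads as the denominator, which is larger by construction.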

Other observations

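Reads on the same strand as the gene, which the comparisons above did not use, were few for the tail genes. They were 0.0164% of the reads of Ropn1 on both strands and 0.235% of those of Odf2, the highest share of the 10. Odf2 had 633, 564 and 769 such reads in WT and 763, 502 and 518 in cKO. Ropn1 had 4, 5 and 6 in WT and 3, 0 and 2 in cKO, too few to compare.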
